A study of Danio rerio with 18 samples.

Results

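Differences in brain gene expression among 6 sibling families of zebrafish were measured in all 18 libraries of the series, 3 libraries per family. A family is the offspring of 1 mating of 1 pair of fish, and both parents carried 1 copy of the hu3528 allele of mfn2, the gene for mitofusin 2, which joins the outer membranes of mitochondria. Every family, numbered 1 to 6, gave 1 library each of homozygous mutant (Hom, -/-), heterozygous (Het, +/-) and wild-type (WT, +/+) siblings. A library pooled the whole brains of 4 fish aged 4 months, 2 of each sex. The siblings had been sorted by genotype at 2.5 months into a tank per genotype on shared recirculated water, so genotype and tank changed together within a family. Parents, rearing before sorting and anything done family by family, such as the day and hour of brain removal, changed together between families and cannot be told apart here. The hour of removal is not given in the sources used here. The question was which genes varied between matings and which did not, with genotype as a covariate.

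Several background facts help in reading the genes below. The circadian clock is a loop of transcription factors in which Bmal and Clock proteins switch on the period (per), cryptochrome (cry) and nr1d genes, whose products repress the loop in turn. In zebrafish the loop runs in most tissues, is set by light, and moves many transcripts up and down over each day. Stress hormone (glucocorticoid) signalling, heat shock proteins and the multigene families of immunity are further systems known to differ between individual animals.

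Total counts per library ran from 21945070 to 42897654 and 21195 genes were tested. The libraries held brain RNA by the neuronal genes checked: snap25 (ENSDARG00000020609), a synaptic vesicle fusion protein, was at 2530 to 6280 CPM (counts scaled to library size). The transcript of mfn2 was at 25.5 to 34.2 CPM in the 6 Hom libraries. In family 2 the library labelled Het had 117 CPM and the library labelled WT 75.3 CPM, against 67.8 to 86.1 in the other Het and 120 to 140 in the other WT libraries, so genotypes are given as labelled throughout. The Het library of family 1 and the Het and Hom libraries of family 3 stood apart from the rest: their genes deviated from the median of all libraries with an SD of 0.703 to 1.13 on the log2 scale, against 0.191 to 0.288 in the other 15. Results are therefore given with and without those 3 libraries. Without them family 3 keeps only its WT library, so it has no replicate in that fit, and family 1 keeps its Hom and WT libraries. Genes called in a list without them are to be read against the share of all genes called without them, given below. The 13 mitochondrially encoded genes took a mean of 9.38% of counts in family 1, the highest, and 7.5% in family 3, the lowest, and no difference between families was detected (exact permutation test within genotype, p = 0.643). The same holds for total counts (exact permutation p = 0.703). The number of genes detected averaged 17815 in family 3 and 17364 to 17526 in the others (exact permutation p = 0.04, 0.12 after Benjamini-Hochberg adjustment over the 3 values).

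By the share of genes called, the families differed most in genes of the circadian clock. The nuclear receptor gene nr1d1 was 32-fold higher in family 5 than in family 4, and 25 of the 45 clock genes tested changed between families. A smaller set of genes, most of them without a gene name, had no reads in any library of 1 family and were expressed in every library of another. Heat shock, glucocorticoid-responsive and major histocompatibility complex (MHC) class I genes also held members that differed. Genes of neuron types, brain regions, ribosomes, the proteasome and the respiratory chain held few such members or none in all 18 libraries. That does not show that they did not vary.

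A joint test of the 5 family terms (quasi-likelihood F test of edgeR, p-values adjusted by Benjamini-Hochberg) called 405 genes at an adjusted p below 0.05, which is 1.91% of those tested. At an unadjusted p below 0.05 there were 2914 genes. Without the 3 libraries that stand apart, 2202 of 21934 genes were called, or 10%, and these held 392 of the 405. The joint genotype test in the same fit called 372 genes, or 1.76%, and 19 genes were called in both. The widest difference between 2 families had a median of 2.08 on the log2 scale among the 405 called genes, against 0.59 among all genes tested. It reached 2-fold in 359 called genes, 4-fold in 208 and 16-fold in 93. A widest difference is the largest of 15 pairs of families and is therefore above 0 in every gene.

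For 307 of the 405 called genes, the libraries of the higher families all lay above every library of the lower families, whatever the genotype. The share of all genes tested with such a gap was 5.57%. In 125 of the 307 genes the gap set 1 high family above the other 5, and in 57 the only gap set 1 low family below. Each gene was counted at its first gap from the top. Genes with a separate high and a separate low family, such as nr1d1, are therefore in the 125 and not in the 57. Family 5 was the highest family for 125 called genes and family 4 the lowest for 137. These are 30.9% and 33.8% of the called genes, and the same families were highest and lowest for 16.3% and 14% of all genes tested.

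**Figure D1:**
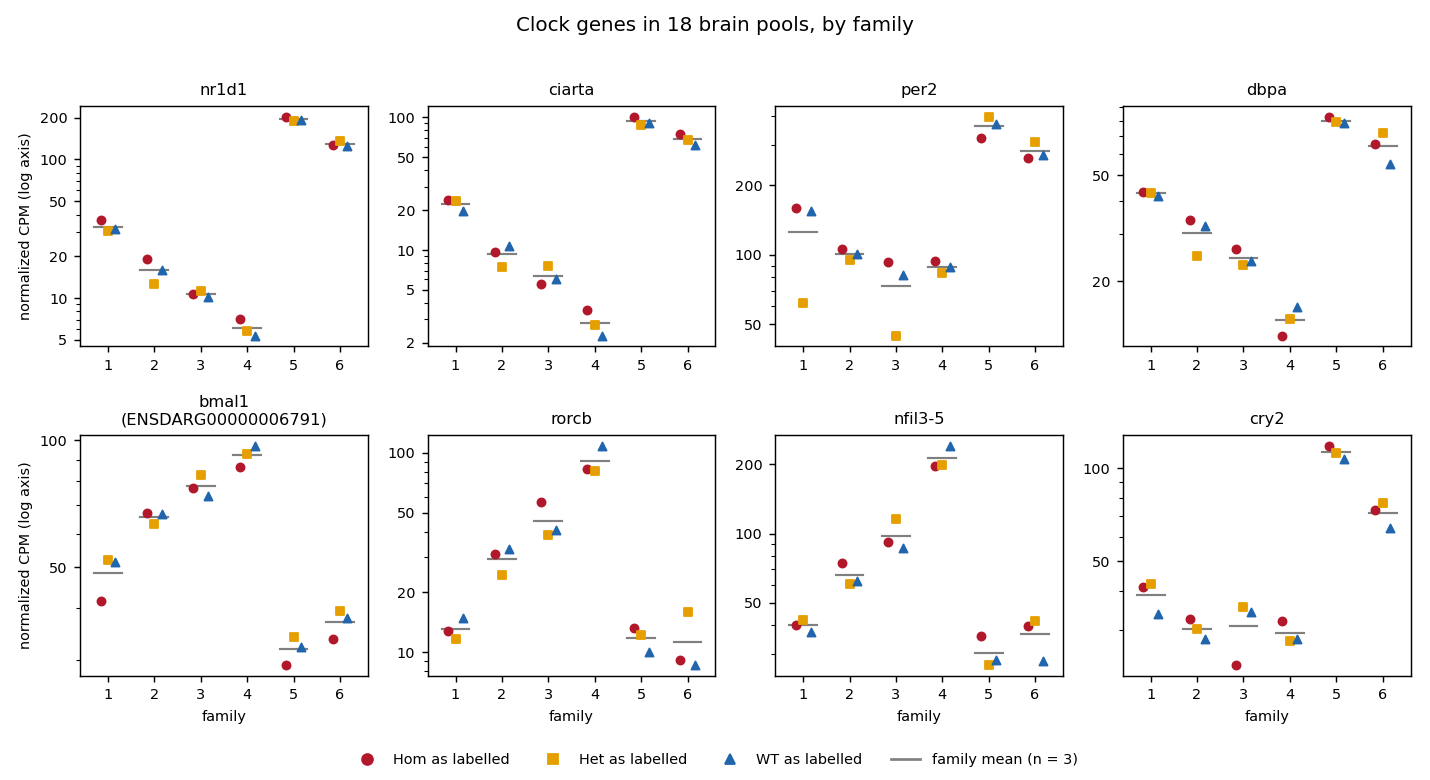
Normalized CPM of 8 clock genes in each of the 18 libraries (log axis), grouped by family, with 1 point per library, shaped and coloured by genotype as labelled, and a line at each family's mean. For nr1d1 the libraries of families 5 and 6 lie at 124 to 203 CPM, above all others, while bmal1, rorcb and nfil3-5 are highest in family 4.

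The gene nr1d1, whose product represses bmal genes, had the smallest p of all genes. Its Hom, Het and WT libraries had 203, 188 and 191 CPM in family 5, 126, 136 and 124 in family 6, and 36.3, 30.5 and 31.4 in family 1. They had 19.2, 12.7 and 15.9 CPM in family 2, 10.7, 11.3 and 10.1 in family 3, and 7.07, 5.79 and 5.37 in family 4. No library overlapped with one of another family, and the order of the families was the same in each genotype. Family 5 averaged 194 ± 7.88 CPM and family 4 averaged 6.07 ± 0.88 (SD, n = 3 each), a log2 difference of 5.00 ± 0.16 (SE, adjusted p = 1.79e-09). The genotype test on nr1d1 gave an adjusted p of 0.464.

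Several repressors of the clock loop, though not all, were also highest in families 5 and 6. The gene ciarta, whose product blocks the Bmal and Clock pair, had 101, 87.9 and 90.2 CPM in the Hom, Het and WT libraries of family 5, and 74.9, 67.8 and 61.6 in family 6. In the other families its libraries lay at 23.9, 23.3 and 19.8 CPM in family 1, 9.71, 7.39 and 10.8 in family 2, 5.56, 7.60 and 6.10 in family 3, and 3.53, 2.73 and 2.27 in family 4. Families 5, 6, 1 and 4 were each separate from all others, and families 2 and 3 overlapped. The difference of family 5 from family 4 was 5.04 ± 0.21 on the log2 scale (adjusted p = 4.52e-08). Of the 2 period genes annotated per1, per1 (ENSDARG00000056885) averaged 66.6 ± 12.4 CPM in family 5 and 4.22 ± 0.51 in family 4, and per1 (ENSDARG00000012499) 348 ± 12 and 34.6 ± 2 (SD, n = 3 each; adjusted p = 1.85e-06 and 4.00e-04).

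The period gene per2, which light switches on in zebrafish, had 322, 397 and 368 CPM in the Hom, Het and WT libraries of family 5 and 263, 307 and 272 in family 6. It had 160, 61.7 and 155 CPM in family 1, 106, 95.4 and 101 in family 2, 94.5, 83.6 and 88.6 in family 4, and 93.3, 44.8 and 81.5 in family 3. Families 5 and 6 lay above all others without overlap, and the lowest values of families 1 and 3 came from Het libraries that stand apart. The widest difference, family 5 over family 3, was 2.36 ± 0.30 on the log2 scale (adjusted p = 0.00144, and 1.03e-07 without the 3 libraries). The cryptochrome gene cry2, another repressor, averaged 112 ± 5.71 CPM in family 5, 71.5 ± 6.52 in family 6 and 29.3 to 39.1 in the other 4. The repressor gene bhlhe41 averaged 404 ± 4.49 CPM in family 5, 272 ± 16.8 in family 6 and 97.2 to 180 in the other families.

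The clock repressor gene cipca, whose product binds Clock, averaged 18.2 ± 0.82 CPM in family 5, 11.7 ± 0.68 in family 6 and 1.74 to 5.09 in the other 4 (SD, n = 3 each; adjusted p = 1.85e-06). The second ciart gene, ciartb, averaged 17.7 ± 1.32 CPM in family 5 and 2.37 ± 0.48 in family 4 (adjusted p = 1.40e-04). Of the cryptochrome repressors, cry1 (ENSDARG00000011583) averaged 73.8 ± 7.52 CPM in family 5, 62.6 ± 3.62 in family 6, 36.3 ± 5.65 in family 1 and 21.7 to 23.6 in the other 3 (adjusted p = 4.40e-05). Other cryptochrome genes were highest in family 4. Of these, cry4 averaged 62.5 CPM in family 4 and 33.7 and 32.7 in families 5 and 6 (adjusted p = 0.0366). Not called were cry3b, at 222, 84 and 91.7 CPM in families 4, 5 and 6, and cry3a, at 476, 301 and 366. The genes cipca, ciartb and cry1 (ENSDARG00000011583) shared the high families 5 and 6. A relative of nr1d1, nr1d2a, departed from that order, with 195, 244 and 136 CPM in the Hom, Het and WT libraries of family 6, a mean of 120 ± 19.9 in family 1 and 107 ± 19.6 in family 5, and 45.1, 33.9 and 34.5 in family 4. Family 6 was the highest and family 1 overlapped with it and with family 5 (family 6 over family 4: 2.33 ± 0.31 on the log2 scale, adjusted p = 0.00594, not called with family 4 left out).

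The activators dbpa, dbpb, tefa and tefb, whose products bind D-box elements, were also highest in family 5. In dbpa the family means were 80.2 ± 2.4 CPM in family 5, 64.1 ± 8.54 in family 6, 42.7 ± 0.78 in family 1, 30.3 ± 4.84 in family 2, 24.4 ± 1.75 in family 3 and 14.3 ± 1.77 in family 4 (SD, n = 3 each). This was the order of nr1d1 in all 3 genotypes. The difference of family 5 from family 4 was 2.48 ± 0.16 on the log2 scale (adjusted p = 8.00e-06).

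Several genes that work at the opposite phase of the loop ran the other way, though not all of their relatives did. The positive arm gene bmal1 (ENSDARG00000006791) had 86.4, 92.9 and 97 CPM in the Hom, Het and WT libraries of family 4, 77.0, 82.5 and 73.7 in family 3, and 67.1, 63.1 and 66.8 in family 2. It had 41.5, 51.9 and 51.4 CPM in family 1, 33.7, 39.4 and 37.8 in family 6, and 29.3, 34.1 and 32.2 in family 5. The 6 families kept this order in each genotype, and families 6 and 5 overlapped. Family 4 exceeded family 5 by 1.53 ± 0.11 on the log2 scale (adjusted p = 2.08e-05).

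The gene rorcb, one of the ror genes whose products activate bmal1, averaged 90.5 ± 15 CPM in family 4, 45.5 ± 9.64 in family 3, 29.4 ± 4.39 in family 2 and 11.2 to 13.1 in the other 3 families (adjusted p = 3.57e-05). Its relative rorca averaged 44.5 ± 5.8 CPM in family 4 and 12.2 ± 1.52 in family 6 (adjusted p = 2.26e-05). The D-box repressor gene nfil3-5 had 197, 199 and 240 CPM in the Hom, Het and WT libraries of family 4, against a mean of 30.4 ± 4.96 in family 5 (SD, n = 3). All libraries of family 4 lay above those of every other family. The difference was 2.81 ± 0.19 on the log2 scale (adjusted p = 5.21e-06). Its relative nfil3 was also highest in family 4, at 28.9 CPM (adjusted p = 0.0195). Another relative, nfil3-6, averaged 86.5 CPM in family 6, 76.2 in family 5 and 38.5 in family 4 (adjusted p = 0.0357). The ror genes rora and rorab, not called, were highest in family 5, at 190 and 174 CPM, against 131 and 149 in family 4. The mean of rorb, not called, was highest in family 3, at 5.94 CPM.

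Across the 45 members of the clock list, the widest difference had a median of 1.40, against 0.59 over all genes. This median was higher in some lists with 1 called member, such as skin (2.497) and muscle (2.314). Of the 45 clock members, 25 were called (55.6%, against 1.91% of all genes). Without the 3 libraries that stand apart, 37 were called. Family terms of 18 called members, nr1d1 itself included, correlated positively with those of nr1d1 over the 6 families and those of 7 negatively. These families share their libraries between genes, so the correlations are descriptions. Families 5 and 6 lay beyond families 1 to 4 in every genotype for 19 of the 25, and family 4 was the highest or the lowest of the 6 in every genotype for 11. The direction was set for each gene by the sign of its correlation with nr1d1. These counts were not taken over all genes tested, so no share stands beside them. The Spearman correlation of the order of families between 2 genotypes had a median of 0.943 over 75 gene and genotype pairs, and was lowest at 0.257, for cry4 in WT against Het. The 25 genes were called by a test that favours families alike across genotypes. This agreement follows in part from that choice and is a description only.

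**Figure D2:**
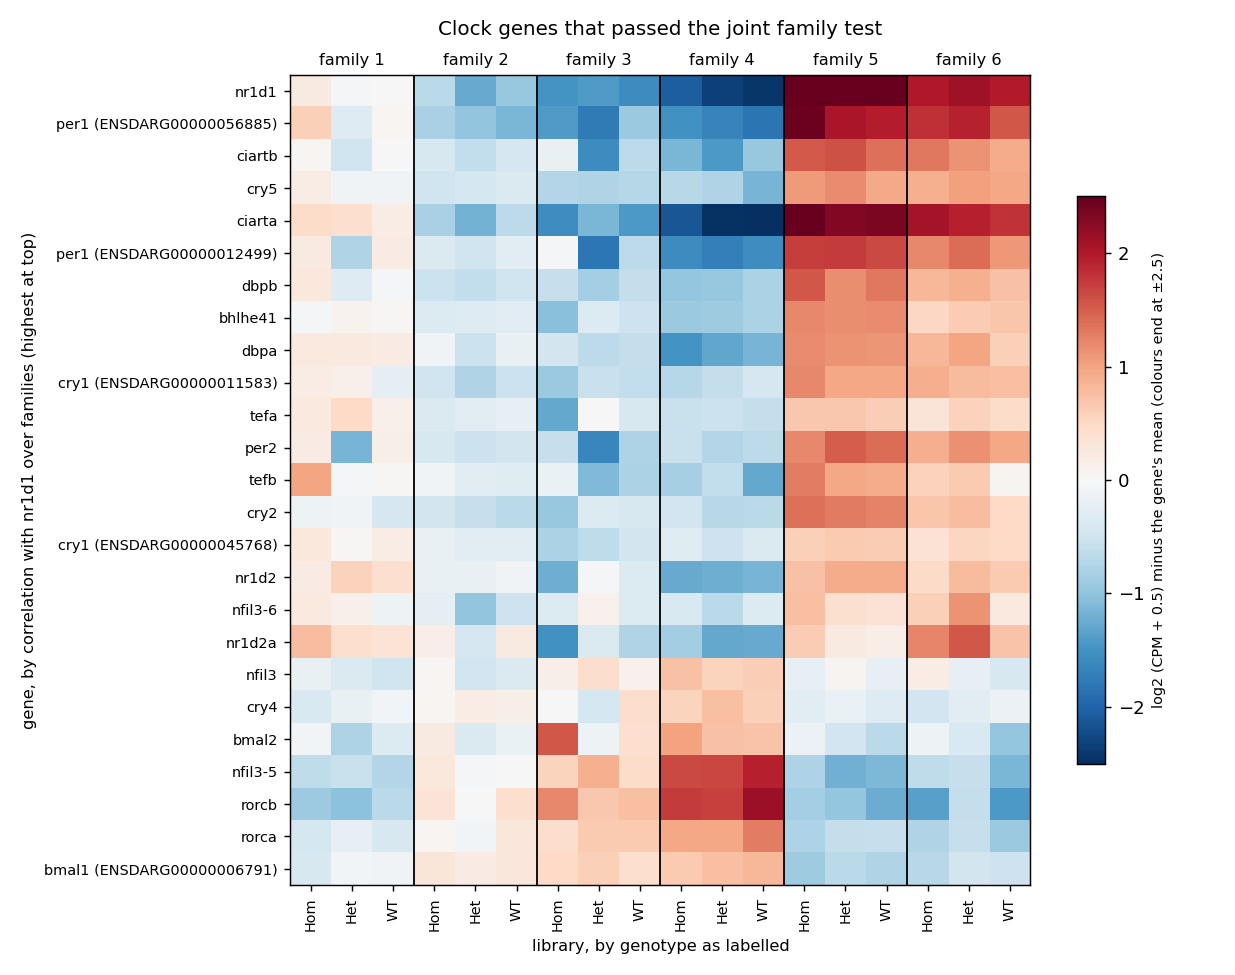
Log2 (CPM + 0.5) of the 25 clock genes that passed the joint family test, minus each gene's mean over the 18 libraries, with libraries in columns by family and genotype as labelled and genes in rows by their correlation with nr1d1. The 18 genes in the upper rows are high in families 5 and 6, and most of the 7 lower rows, from nfil3 to bmal1, are high in family 4.

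Of the 20 clock members that were not called, 12 were called only without the 3 libraries that stand apart, among them per3, which averaged 336 CPM in family 5 and 45.4 in family 4 (adjusted p = 0.0792 in all libraries and 3.28e-07 in the 15). The other 8 were called in neither fit. They include both genes annotated clock, whose protein pairs with Bmal: clock (ENSDARG00000003631) averaged 24 CPM in family 4, the highest, and 17.9 in family 6, the lowest (adjusted p = 0.54). The kinase gene csnk1e averaged 207 to 245 CPM and timeless, whose product protects replication forks, 36.4 to 42.3 CPM over the families. These 2 members had adjusted p of 0.879 and 0.729.

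Outside the list, 56 called genes had family terms that correlated with those of nr1d1 at 0.9 or beyond in either direction, 42 positively and 14 negatively. With the 21 clock members at that level, nr1d1 itself included, this made 77 genes, or 19% of the called genes, against 2.3% of all genes tested. The share was 25.1% among called genes with a gene name and 7.75% among those without. The correlation level was chosen after the values were seen. The gene ddb2, whose product recognizes ultraviolet damage to DNA, was among them. It had 44.3, 42.3 and 36.7 CPM in the Hom, Het and WT libraries of family 5 and 35.0, 37.2 and 37.4 in family 6, against 6.91 to 19.2 in the other 12 libraries. Families 5 and 6 overlapped each other and lay above all others (adjusted p = 2.06e-05).

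The gene cry-dash and the clock list member cry5, both of the photolyase and cryptochrome family, were also high in families 5 and 6. The first averaged 36.7 ± 0.81 CPM in family 6 and 7.15 ± 0.37 in family 4, and the second 30.4 ± 2.45 in family 5 and 7.68 ± 1.36 in family 4 (SD, n = 3 each; adjusted p = 3.21e-06 and 5.55e-06). The gene wdr76, whose product is a WD-repeat protein found at damaged DNA, averaged 8.68 ± 1.05 CPM in family 5 and 1.3 ± 0.36 in family 4 (adjusted p = 3.39e-05).

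The zinc finger gene znf395 (ENSDARG00000024195) averaged 124 ± 3.17 CPM in family 5, 92.8 ± 10 in family 6, 67 ± 2.17 in family 1 and 27.7 to 41.1 in the other 3 (adjusted p = 2.16e-04). The gene of smallest p outside the clock list, si:ch211-132b12.7, has no descriptive name. It averaged 215 ± 7.2 CPM in family 5 and 9.69 ± 0.46 in family 4 (SD, n = 3 each; adjusted p = 4.52e-08).

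Genes of metabolism were among the 56 as well, and those that follow were chosen after their values were seen. The gene amd1, for an enzyme of polyamine synthesis, averaged 505 CPM in family 5 and 208 in family 4 (adjusted p = 6.76e-04). The CTP synthase gene ctps1 (ENSDARG00000098386) averaged 134 CPM in family 5 and 54.4 in family 3 (adjusted p = 4.96e-04). The proline-degrading enzyme gene aldh4a1 averaged 37.2 CPM in family 5 and 16.9 in family 4 (adjusted p = 0.0015). Running the other way, impdh1 (ENSDARG00000029524), for an enzyme of guanine nucleotide synthesis, averaged 68.6 CPM in family 4 and 28.0 in family 5 (adjusted p = 0.00908).

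The remaining 328 called genes had family terms that correlated with those of nr1d1 below 0.9 in either direction, among them bmal2 at -0.863. Family 1 was the highest for 68 of the 328, family 5 for 72 and family 6 for 57, and family 4 was the lowest for 96. Over all genes tested, families 1, 5 and 6 were the highest for 17.9%, 16.3% and 13.5%. Family 4 was the lowest for 14% of them. The actin-binding coronin gene coro2a had the smallest p among named genes of this kind. It had 23.5, 24.0 and 23.7 CPM in the Hom, Het and WT libraries of family 5 and 2.59, 2.75 and 3.71 in family 2. All libraries of the other 4 families lay between them, at 7.14 to 17.4 CPM. The log2 difference of family 5 from family 2 was 2.99 ± 0.23 (adjusted p = 2.16e-04).

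The alpha-tubulin gene tuba1b, which is on the list of common reference genes, had 225, 230 and 211 CPM in the Hom, Het and WT libraries of family 1 and 26.0, 20.3 and 20.8 in family 4. Family 4 lay below every other family, whose libraries began at 48.6 CPM. The difference was 3.29 ± 0.33 on the log2 scale (adjusted p = 0.00144), and it was not called with family 4 left out. Tubulin genes are a family of similar sequences, so reads may be split between copies, and the value is uncertain for that reason. Of the 26 reference genes tested, tuba1b was the only 1 called in all 18 libraries, and 3 were called without the libraries that stand apart. These 3 are tuba1b, tuba1c and ubc, named for that count. The ubiquitin gene ubc was at 2650 CPM in family 4 and 1300 in family 5 (adjusted p = 0.232 in all libraries and 1.23e-04 in the 15).

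Family 4 also stood below all other libraries in efemp2 (ENSDARG00000020811), for an extracellular matrix protein of elastic fibres. It had 147, 62.1 and 83.2 CPM in the Hom, Het and WT libraries of family 3 and 16.6, 12.7 and 11.4 in family 4, and the other 12 libraries lay at 33.6 to 127 CPM. The adjusted p was 0.015, and it was up to 0.0849 when any 1 library of family 4 was left out. The annexin gene anxa3b, 1 of 44 skin and epithelium genes, averaged 45.3 ± 15.5 CPM in family 1 and 5.11 ± 0.61 in family 4 (adjusted p = 0.0195, lost without any 1 of 5 libraries of families 1 and 4, with up to 0.1). The detoxification enzyme gene gstt2, a glutathione transferase, averaged 8.54 ± 1.34 CPM in family 5, 5.84 ± 1.13 in family 1, 4.07 ± 0.54 in family 4 and 1.81 to 2.23 in the other 3 (adjusted p = 0.00144). It was 1 of 3 called among 58 detoxification enzymes (5.17%, against 1.91% of all genes). Without the libraries that stand apart, the share called was also above that of all genes.

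Of 20 glucocorticoid-responsive genes tested, 5 were called, which is 25% against 1.91% of all genes, and 7 without the libraries that stand apart. Both per1 genes are among them and are also on the clock list. The gene fkbp5, for a chaperone partner that dampens the glucocorticoid receptor, had 219, 220 and 186 CPM in the Hom, Het and WT libraries of family 6 and 198, 163 and 119 in family 1. It had 77.2, 35.5 and 91.2 CPM in family 2, 85.2, 19.4 and 40.7 in family 5, 24.3, 49.4 and 24.1 in family 4, and 13.3, 14.7 and 7.36 in family 3. Families 6 and 1 lay above all others, and family 3 below all others. The difference of family 6 from family 3 was 4.17 ± 0.53 on the log2 scale (adjusted p = 0.00397).

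The transcription factor genes klf9 and cebpd are the other called members of the glucocorticoid list, and were named after their values were seen. Family means of klf9 were 20.7 CPM in family 6, 15 in family 1, 5.64 in family 5, 5.37 in family 2, 3.39 in family 4 and 2.34 in family 3 (adjusted p = 0.00768). In cebpd, families 6 and 1 averaged 27.8 and 24.5 CPM and the others 9.35 to 16.4 (adjusted p = 0.0404). Families 6 and 1 were thus highest for all 3 genes, although in cebpd the Hom libraries also lay above their Het and WT siblings in each family, at 16 to 55.5 CPM against 3.46 to 21.7. The same families had the highest summed level of the 28 erythrocyte genes matched, at 3410 CPM in family 6 and 3300 in family 1, against 1400 to 2280 in the others. The summed level ran from 769 to 5000 CPM over single libraries. Of the 23 genes tested, only slc4a1 (ENSDARG00000012881) was called (4.35%, against 1.91% of all genes). Without the libraries that stand apart, the share called was far above that of all genes. The part of blood content in the fkbp5 result was not tested. In pools of whole brain, more cells of a type and more RNA per cell cannot be told apart.

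**Figure D3:**
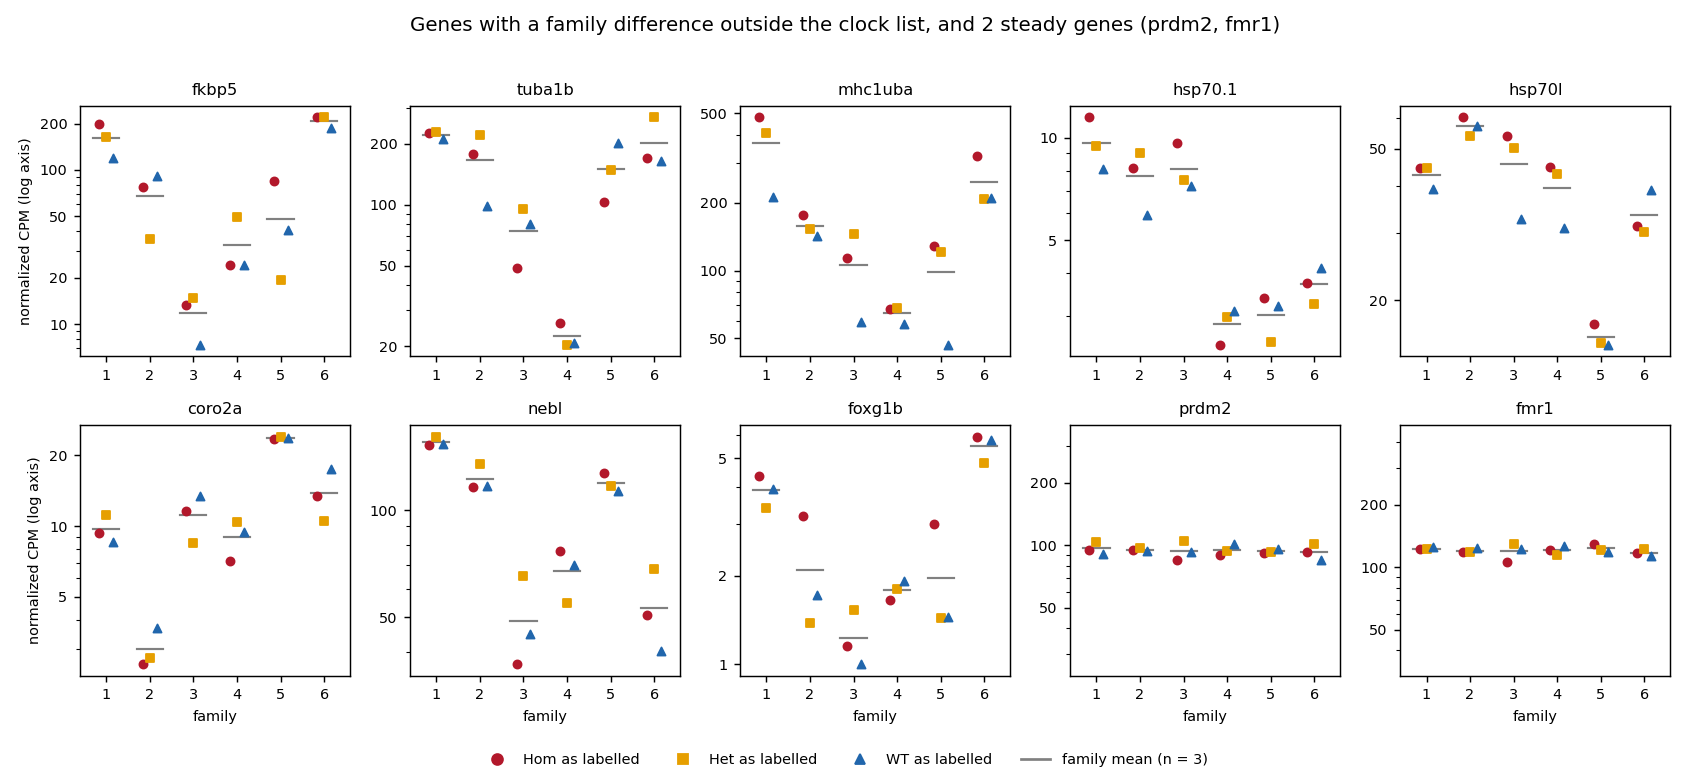
Normalized CPM (log axis) in each of the 18 libraries by family for 8 called genes outside the clock list and for prdm2 and fmr1, which are among the steadiest genes; points are libraries by genotype as labelled and lines are family means. Each of the 8 called genes has its own order of families, with fkbp5 at 186 to 220 CPM in family 6 and 7.36 to 14.7 CPM in family 3, while prdm2 and fmr1 stay within narrow bands in all 6.

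Heat shock and cold response genes had 7 of 36 members called (19.4%, against 1.91% of all genes). The share was also well above that of all genes without the libraries that stand apart. The chaperone gene hsp70.1 had 11.5, 9.44 and 8.09 CPM in the Hom, Het and WT libraries of family 1, 9.66, 7.52 and 7.20 in family 3, and 8.15, 9.04 and 5.95 in family 2. It had 3.75, 3.25 and 4.15 CPM in family 6, 3.38, 2.51 and 3.20 in family 5, and 2.47, 2.98 and 3.10 in family 4. Families 1 to 3 lay above families 4 to 6 without overlap (adjusted p = 7.68e-04). The related gene hsp70l was lowest in family 5: family 2 averaged 57.3 ± 3.19 CPM and family 5 averaged 16.1 ± 1.17 (SD, n = 3 each), a difference of 1.84 ± 0.18 on the log2 scale (adjusted p = 0.00188). It was not called with family 5 left out. These heat shock genes have near copies, and their values share that uncertainty. The transcription factor gene hsf2, also on this list, followed nr1d1, at 86.1 ± 5.75 CPM in family 5 and 15 ± 2.4 in family 4 (adjusted p = 8.41e-04).

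Immediate early genes, which neurons switch on within minutes of activity, had 2 of 39 members called (5.13%, against 1.91% of all genes). Without the libraries that stand apart, the share called was well above that of all genes. The gene fosb had 6.86, 9.44 and 5.54 CPM in the Hom, Het and WT libraries of family 6, against 0.733 to 3.15 CPM in the other 15. Family 6 did not overlap with the rest (adjusted p = 0.0156, not called with family 2, 4 or 6 left out). The nuclear receptor gene nr4a1 averaged 12 ± 1.31 CPM in family 6, above the 2.37 to 5.90 CPM of the other families (adjusted p = 0.0357). Its call was lost without any 1 of 11 libraries, with an adjusted p of up to 0.155, and that of fosb without the Het or the Hom library of family 6, with up to 0.0878.

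Among immune genes, 4 of 30 MHC class I and antigen processing members were called (13.3%, against 1.91% of all genes), and none of 7 MHC class II members. Without the libraries that stand apart, the class I share was well above that of all genes, and class II again held no called member. The class I gene mhc1uba had 481, 408 and 213 CPM in the Hom, Het and WT libraries of family 1 and 323, 208 and 211 in family 6. It had 177, 153 and 142 CPM in family 2, 114, 145 and 59.3 in family 3, 128, 121 and 46.8 in family 5, and 67.8, 68.0 and 58.2 in family 4. Families 1 and 6 lay above all others (family 1 over family 4: 2.42 ± 0.28 on the log2 scale, adjusted p = 0.00144). Within families 1, 2, 5 and 6 the Hom library was the highest.

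The peptide-trimming enzyme gene erap2 averaged 17.8 ± 1.81 CPM in family 1 and 4.97 ± 0.39 in family 2 (adjusted p = 0.0186, lost without any 1 of 5 libraries of families 1 and 2, with up to 0.0889). The class I gene mhc1zea had a narrower range, at 18.5 ± 2.34 CPM in family 3 and 10 ± 0.54 in family 4 (adjusted p = 0.0102, not called with family 2 or 4 left out). In the finTRIM family of immune genes, ftr02 averaged 4.72 ± 0.43 CPM in family 3 and 1.05 ± 0.28 in family 2 (adjusted p = 0.00219, not called with family 2 left out). The interferon-induced gene isg15 was the 1 called of 30 interferon response genes, with 2 called without the libraries that stand apart. It had 65.2 CPM in the Hom library of family 4 and at least 10 and at most 39.6 in the other Hom libraries, against 0.635 to 6.50 in the Het and WT libraries, and it was called in the genotype test as well. Its family call was lost without any 1 library of families 2 or 4, with an adjusted p of up to 0.0817. MHC and finTRIM genes belong to large families of similar sequences, so their values are uncertain where reads map to several copies.

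A set of 30 genes had 0 counts in all 3 libraries of at least 1 family and at least 1 CPM in all 3 libraries of another. All 30 passed the filter on low counts, which follows from the level required in the family that expressed them. They were chosen by these very levels, so the levels are given as a description, with no test. In all 18 libraries the joint family test called 18 of the 30, a count that the same choice bears on. More of the 30 were called without the libraries that stand apart. Only 9 of the 30 had a gene name. The other 21, or 70%, had none, against 35.1% of the called genes and 18.4% of all genes tested. Family 4 was silent for 15 of the 30 genes, family 5 for 12, family 2 for 8, family 1 for 5, family 3 for 4 and family 6 for 3. A count of 0 over a family of 3 libraries allows a level of up to 0.0316 to 0.038 CPM in the cases below, from 3 counts over the family's libraries, for counting error only.

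**Figure D4:**
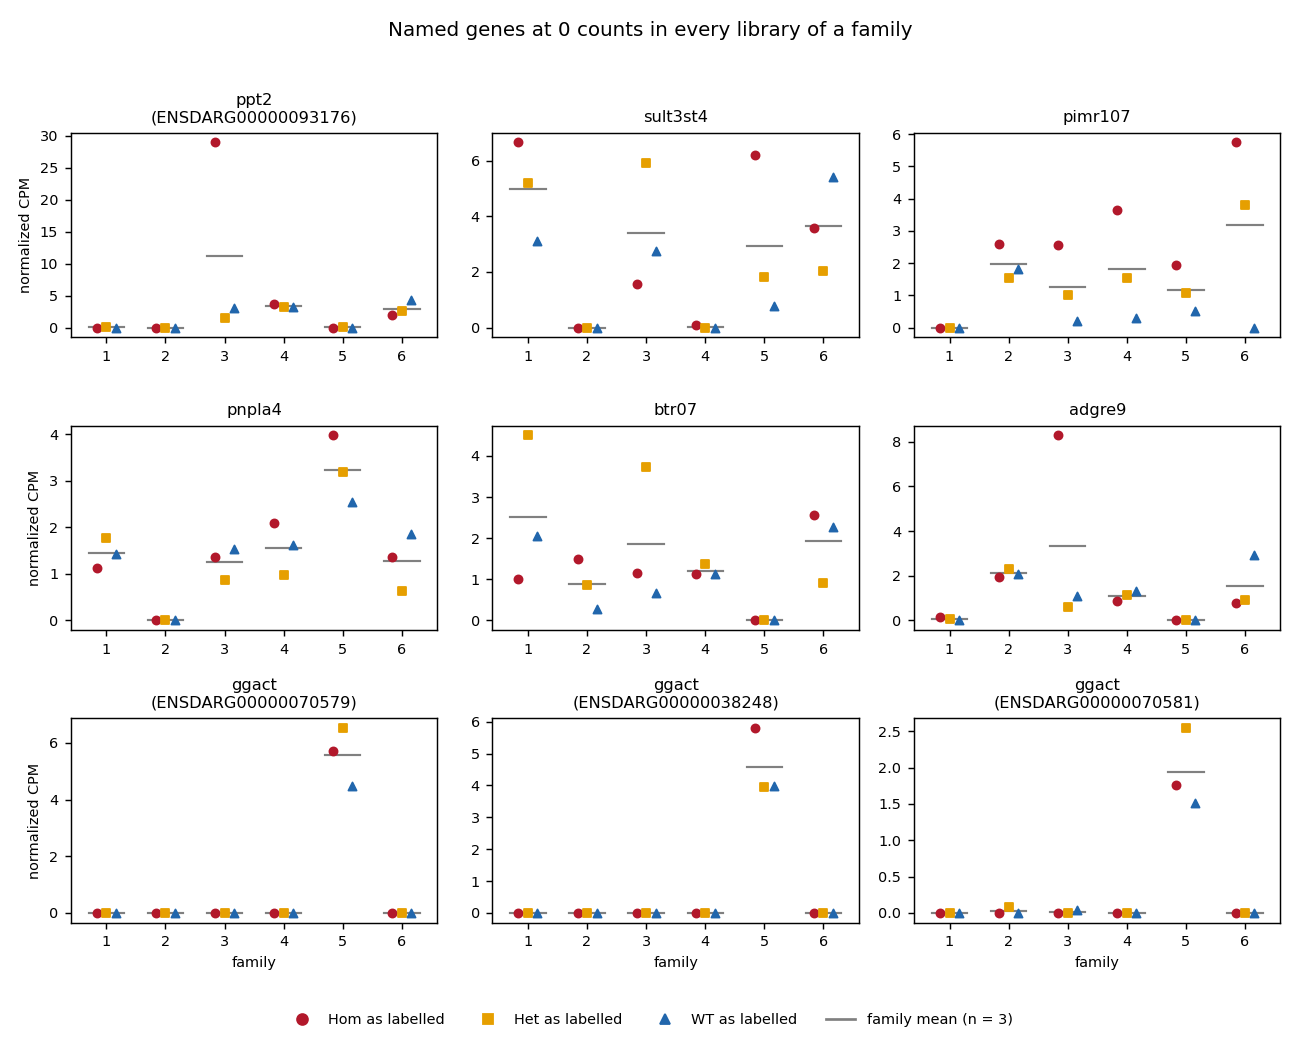
Normalized CPM (linear axis) in each of the 18 libraries by family for the 9 named genes with 0 counts in every library of at least 1 family; points are libraries by genotype as labelled and lines are family means. The 3 ggact genes have reads in family 5, at 1.52 to 6.54 CPM, with 0 to 0.0786 CPM in the other 15 libraries, and pnpla4 is at 0 in family 2 and no other.

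The clearest case was a group of 3 genes annotated ggact, for an enzyme of gamma-glutamylamine breakdown. In family 5, ggact (ENSDARG00000070579) had 5.73, 6.54 and 4.49 CPM in the Hom, Het and WT libraries, or 442 counts in all, and 0 counts in each of the other 15 libraries. This is at least 153-fold higher in family 5 than the limit for family 1. In the same way ggact (ENSDARG00000038248) had 5.81, 3.95 and 3.98 CPM in family 5, or 366 counts, and 0 in the other 15 libraries. The third, ggact (ENSDARG00000070581), had 1.76, 2.55 and 1.52 CPM in family 5 and 3 counts in all elsewhere, 2 in family 2 and 1 in family 3. The genes share a name and may share reads, so they may be fewer than 3 separate measurements. Only the third was called in the joint family test in all 18 libraries, and the others were called without the libraries that stand apart. The call of the third was lost without any 1 library of family 5, with an adjusted p of up to 0.134.

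The lipase gene pnpla4 had 3.98, 3.19 and 2.54 CPM in the Hom, Het and WT libraries of family 5, 0.634 to 2.09 CPM in families 1, 3, 4 and 6, and 0 counts in family 2. Family 5 was at least 102-fold above the limit for family 2. The sulfotransferase gene sult3st4 had 6.67, 5.2 and 3.12 CPM in family 1, 0 counts in family 2 and 3 counts in family 4. Family 1 was at least 158-fold above the limit for family 2. The libraries of families 3, 5 and 6 lay at 0.781 to 6.23 CPM, so family 1 did not stand above them.

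The thioesterase gene ppt2 (ENSDARG00000093176) divided the families into sets of 3. It had 29.0, 1.56 and 3.13 CPM in the Hom, Het and WT libraries of family 3, 3.67, 3.20 and 3.20 in family 4, and 1.89, 2.54 and 4.34 in family 6. Families 1, 2 and 5 had 1, 0 and 1 counts. The 29.0 CPM came from a library that stands apart. The adhesion receptor gene adgre9 was likewise at or near 0 in families 1 and 5, with 5 and 0 counts, and at 0.581 to 8.31 CPM in the other families. The tripartite-motif gene btr07 had 0 counts in family 5 and 0.282 to 4.51 CPM elsewhere, and the kinase gene pimr107 had 0 counts in family 1. Neither btr07 nor pimr107 was called in the joint family test in all 18 libraries. Without the libraries that stand apart, btr07 was called and pimr107 was not.

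Some called genes were neighbours in the order of the genes that could be placed. By their names in the GRCz12tu annotation, 14705 tested genes could be placed in order, 264 of them called (1.80%). Distance was not considered, and genes that were not placed may lie between neighbours. Of these, 22 (8.33%) had a called gene as a direct neighbour, against 498 (3.45%) of the genes not called, and the difference was not tested. They form 12 neighbouring pairs, whose family terms correlated with a median of 0.935 over the 6 families, against 0.086 over all 14680 neighbouring pairs. The 12 pairs hold genes called for their family differences, and most of all pairs do not. The medians therefore do not compare like with like, and called genes that are not neighbours were not compared. The correlations ran from -0.284, for per2 with si:dkeyp-94g1.1, to 0.982, for adgre10 with the heat shock gene dnajb1b. High pairs include the polymerase gene poll with the arsenic methyltransferase gene as3mt (0.976), and slx4ip with mkks (0.968). Some pairs share a gene, as adgre10 is also paired with adgre9 (0.521), so the pairs are not all separate cases. Overlapping transcripts could share reads, since the strand setting of the counting is not given in the sources used here. Pairs with like names, such as drll.2 with drll.1, may be similar in sequence and share reads as well.

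**Figure D5:**
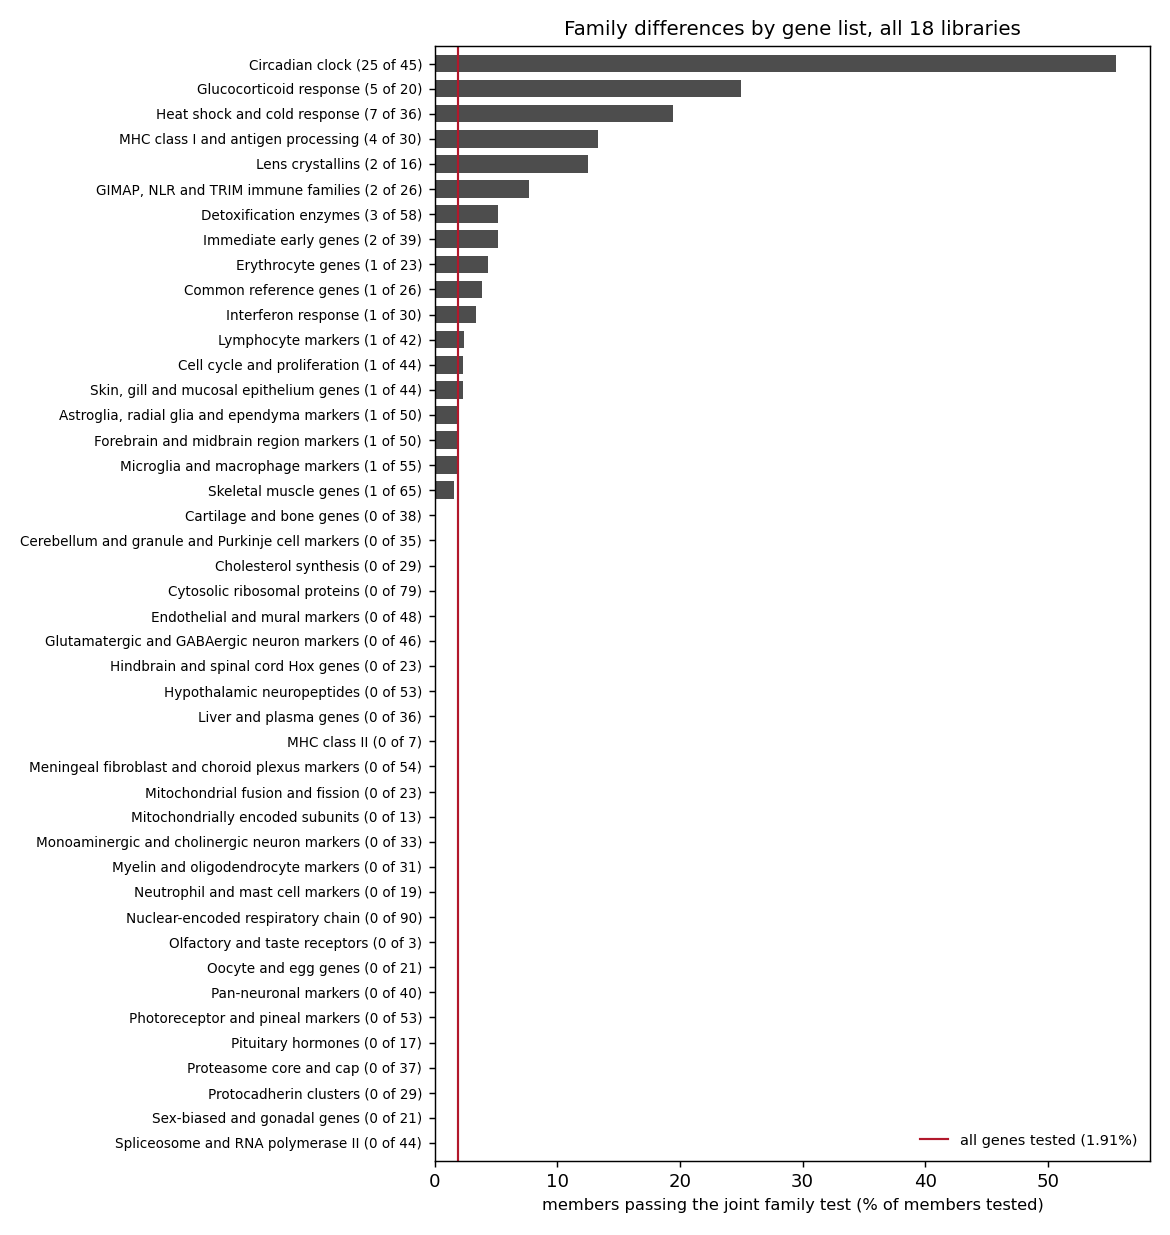
Share of tested members that passed the joint family test in all 18 libraries, for each of 44 gene lists, with the number called and tested in brackets and a vertical line at 1.91%, the share of all genes tested. The clock list stands at 55.6%, and 26 lists have no called member.

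Of the 44 lists, 18 held a called member and 26 held none. No member was called among 79 cytosolic ribosomal proteins, 37 proteasome subunits, 44 spliceosome and RNA polymerase II genes, 90 nuclear-encoded respiratory chain genes or the 13 mitochondrially encoded subunits. Without the libraries that stand apart, each of these lists but the proteasome held called members. The share called was then above that of all genes for the ribosomal proteins and below it for the rest. None was called in all libraries of 40 pan-neuronal, 46 glutamatergic and GABAergic, 33 monoaminergic and cholinergic markers and 53 hypothalamic neuropeptide genes. In the 15, each of these lists held called members. The share called was then above that of all genes for the glutamatergic and GABAergic markers and not for the others. The lists of cholesterol synthesis, pituitary hormones, cerebellum, Hox genes, photoreceptors, cartilage and bone, oocyte, liver, neutrophil, myelin, endothelial, meningeal, olfactory, protocadherin and gonadal genes also held no called member. Of these lists, the 31 myelin and oligodendrocyte genes had the highest share called without the libraries that stand apart. It was far above that of all genes. Of 23 genes of mitochondrial fusion and fission, none was called in all libraries. In the 15, the share of them called was above that of all genes. The mfn2 transcript itself had a widest difference of 0.32 between families (log2 scale, family 5 over family 4, adjusted p = 0.917).

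The member of smallest p in each of these lists did not pass in all libraries. Among them, chat, for the enzyme that makes acetylcholine, averaged 107 CPM in family 1 and 55.1 in family 4 (adjusted p = 0.0888 in all libraries and 0.0168 in the 15). The neuropeptide gene pth2 averaged 49.3 CPM in family 5 and 19.2 in family 3 (adjusted p = 0.336 and 0.0585). For mfn1, the relative of mfn2 in the fusion machinery, the means were 2.94 CPM in family 5 and 0.411 in family 4 (adjusted p = 0.11 and 0.0391). The respiratory chain gene atp5mea, a subunit of ATP synthase, averaged 121 CPM in family 6 and 50.5 in family 3 (adjusted p = 0.241 and 0.00521), and rpl38, for a protein of the large ribosomal subunit, 127 CPM in family 6 and 70.9 in family 3 (adjusted p = 0.518 and 0.0185).

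The forebrain and midbrain list and the muscle list held 1 called member each (2% and 1.54%, close to the 1.91% of all genes). Without the libraries that stand apart, neither share was above that of all genes. The lens list held 2 of 16 (12.5%), and 3 without those libraries. The forebrain transcription factor gene foxg1b, the only 1 called of 50 forebrain and midbrain markers, had 5.93, 4.84 and 5.77 CPM in the Hom, Het and WT libraries of family 6 and 1.15, 1.53 and 1.00 in family 3. Family 6 lay above all other libraries (adjusted p = 0.00768). The nebulette gene nebl, 1 of 65 muscle genes, averaged 155 ± 5.2 CPM in family 1 and 49.0 ± 14.6 in family 3 (SD, n = 3 each; adjusted p = 0.00164). The summed level of the 74 muscle genes matched did not follow it. It was 1260 CPM in family 1, 1100 to 1140 in families 2, 4, 5 and 6, and 2440 in family 3. Over single libraries the highest sum was 5100 CPM and the median 1140. The lens crystallin gene cryba1l1 averaged 3.91 ± 1.84 CPM in family 6 and 0.399 ± 0.054 in family 4 (SD, n = 3 each; adjusted p = 0.013, lost without the WT library of family 6 or the Het library of family 4, with up to 0.0589). The small heat shock gene cryab (ENSDARG00000101380), on the lens and heat shock lists, averaged 19.3 ± 2.03 CPM in family 1 and 3.35 ± 0.64 in family 6 (adjusted p = 0.038, lost without any 1 of 14 libraries).

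Single members were also called among microglia and macrophage markers, lymphocyte markers, astroglia markers, skin genes and cell cycle genes, close to the 1.91% of all genes. Without the libraries that stand apart, the shares of microglia and macrophage, astroglia and skin members called were a little above that of all genes. The share of lymphocyte members was below it. The arginase gene arg2, 1 of 55 microglia and macrophage markers, averaged 213 CPM in family 5 and 90.7 in family 2, with family terms that correlated with those of nr1d1 at 0.944. The kinase gene zap70 of T cells, 1 of 42 lymphocyte markers, averaged 3.78 CPM in family 1 and 1.6 in family 5, and was not called without the libraries that stand apart (adjusted p = 0.0363 in all libraries and 0.0831 in the 15). The replication gene mcm5, 1 of 44 cell cycle genes, averaged 13.1 CPM in family 6 and 5.58 in family 4. In the fit without the libraries that stand apart, the share of the 44 cell cycle genes called was far above that of all genes. The call of arg2 was lost without any 1 of 6 libraries, that of zap70 without any 1 of 14 and that of mcm5 without any 1 of 6, with adjusted p of up to 0.0913, 0.127 and 0.0671.

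Genes that did not vary were sought by the size of the difference the data allow, since a p above the threshold does not show that families are alike. For 4219 genes, 19.9% of those tested, the 95% intervals of all 15 differences between families, held jointly, lay within 2-fold. Of these, 3 were also called: the splicing-related gene prcc, the kinase gene mapk14 (ENSDARG00000028721) and the helicase gene hltf, with widest differences of 0.54, 0.59 and 0.58 on the log2 scale. For 16574 genes neither statement could be made.

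The narrowest bounds among named genes were those of prdm2, bmi1 (ENSDARG00000013076), cul1a, papolg, fmr1, slc9a8, las1l, rapgef5b, garem1 and khdrbs1a, at 0.449 to 0.483 on the log2 scale, and none was called. The gene prdm2, for a zinc finger protein of chromatin, had family means of 93.5 to 96.9 CPM. The gene fmr1, whose product binds RNA at synapses, had 130, 121 and 119 CPM in the Hom, Het and WT libraries of family 5 and 117, 123 and 113 in family 6, the families furthest apart. They overlapped, and over all 18 libraries fmr1 lay at 106 to 130 CPM. The ubiquitin ligase scaffold gene cul1a had family means of 94.7 to 103 CPM, and the RNA-binding protein gene khdrbs1a had a widest fold of 1.06. By list, 10 of 23 fusion and fission genes (43.5%) and 14 of 44 spliceosome and RNA polymerase II genes (31.8%) were bounded in this way. So were 10 of 40 pan-neuronal markers (25%). These shares were above the 19.9% of all genes tested. Lists below it included cytosolic ribosomal proteins (0 of 79), mitochondrially encoded subunits (0 of 13), nuclear-encoded respiratory chain genes (2 of 90) and proteasome subunits (4 of 37). A list with no called member was therefore not shown to be steady. Of the reference genes, eef1a1 (ENSDARG00000069951) had the narrowest bound (0.632, with a widest difference of 0.17) and tbp the next (0.745, with 0.15).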

How the data were processed

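Polyadenylated RNA of 18 pools of zebrafish brain was sequenced. The authors deposited whole-number counts per gene, unnormalized, in 1 table of 32057 genes. STAR 2.7.0a, featureCounts (Subread 1.5.2) and GRCz11 are named in the submitters' processing notes. How strand and multi-mapping reads were handled, and the gene annotation used, is not given in the sources used here. All columns were matched to samples by name and 0 were left unused. Symbols came from a table that names 28988 of the IDs, and a symbol carried by several IDs is printed with its ID. List members were matched by symbol, if need be without a trailing paralog letter or number.

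The counts went into edgeR 4.0.16 (R 4.3.3): filterByExpr by family (minimum count 10, minimum total 15), TMM scaling, a model of family and genotype, a quasi-likelihood F test of the 5 family terms and Benjamini-Hochberg adjustment over all genes tested, threshold 0.05, prior count 0.125. An SE is that of the fitted difference between the highest and the lowest family, which were picked for that difference. CPM are on TMM-scaled library sizes. Bounds came from limma 3.58.1 (voom), with 95% intervals Bonferroni-adjusted over the 15 pairs of families. Library values were tested by permuting families within genotype over all 518400 arrangements of the statistic. The test and the bounds were tested on simulated data. The lowest chi-square per degree of freedom between libraries was 7.1, so none was counted as a duplicate. Libraries are matched across families by genotype, which is the block in the model.

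The members and the gene lists were chosen with earlier results of these data known. The genes named are mfn2, the 20 of smallest p with a gene name, the named genes silent in a family (up to 10), the 10 called genes of widest difference at a mean of at least 50 CPM, the 10 of narrowest bound, and the first 3 members by p of each list with a called member, or the first of each other list. Any further gene was picked with its values in view, as was the correlation with nr1d1. Alternatives were DESeq2 1.42.0, voom with library weights, robust edgeR, other scalings, filters and covariates, and leaving out libraries and families. The 3 libraries of a family come from separate pools of siblings. No sequences were used. Gene order, used only to find neighbours, came from the GRCz12tu annotation, matched by name, and no coordinates are given.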

Additional observations from a re-analysis of the deposited data

Results flagged for a closer look

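For 4 values (total counts, share of counts from mitochondrially encoded genes, genes detected and mfn2 level), each of the 3 genotypes was searched for a library far from the other 5, by Dixon's ratio, and 5 of the 12 groups of 6 libraries held one. Chance gives about 1 in 20 such groups. The WT library of family 2 had total counts of 42897654, against 30404259 in the next. The Hom library of family 3 had a mitochondrially encoded share of 1.93%, against 5.18% in the next. The WT library of family 3 had 17646 genes detected, against 17353 in the next. The mfn2 level was 117 CPM in the library labelled Het of family 2, against 86.1 in the next Het library, and 75.3 CPM in the library labelled WT of family 2, against 120 in the next WT library. Families hold 3 libraries each and were not searched in this way.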

How the results depend on the processing

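The number of genes that passed the joint family test depended on the libraries and the tool more than on scaling, filter or robust fitting. In place of 405, DESeq2 called 2064 genes and limma voom with library weights 3802, each holding 404 of the 405. The fit without the 3 libraries that stand apart called 2202, without families 1 and 3 it called 2421, without the WT and Het libraries of family 2 162, and without family 1, 2, 3, 4 or 5 it called 237, 217, 1114, 143 and 154. An adjusted p of 0.01 left 153. Leaving out single libraries gave 220 to 964, lowest without the Het library of family 4 and highest without the Hom library of family 3. With no replicate block, that is with genotype left out of the model, 416 were called, 320 of them shared. The clock members called numbered 19 to 37 of 45 under these settings. The genotype count of 372 became 1298 without the 3 libraries and 167 to 562 without single libraries. The count bounded within 2-fold, 4219, became 225 at 1.5-fold, 7704 without the 3 libraries, 9117 with library weights and 2835 to 6347 without single libraries. The 30 silent genes became 15 at 2 CPM and 50 at 0.5 CPM, and numbered 31 to 36 without single libraries. Without families 1 and 3 the exact permutation p for genes detected was 0.241. No named gene called in all 18 libraries reversed, that is, had family terms that correlated negatively with those reported above. Named genes that were not called were not checked for this. The cause of these shifts was not tested. Fewer libraries also mean fewer degrees of freedom.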
